A study of Mus musculus with 371 samples.

Results

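The genes described here are 8 genes of arginine and polyamine metabolism: Odc1, Oaz1, Oaz2, Amd1, Srm, Sms, Sat1 and Ass1. They were followed by symbol in a table of 23366 rows of expression values over single T cells taken from B16F10 melanoma, a transplantable mouse skin tumour, grown in C57BL/6 mice. They were selected on FPKM values of this same table, in these same groups of cells, which had already been seen. Their levels and differences are therefore given as a description, without a test. The cells carry the genotype label WT or IL27raKO (a knockout of the alpha chain of the interleukin 27 receptor, written KO from here on), and the titles name a CD8 or a CD4 sort. Treatment, time after tumour implantation, and the animals' age, sex and number are not given in the sources used here, and the treatment text speaks of CD8 cells alone although the titles also name CD4.

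Each combination of genotype and sort carries a single name and a single replicate number, 3, in every title. It is treated as 1 sample and called a pool here, although the labels do not say whether its cells came from 1 mouse or several, and the 4 pools have no replicate. Titles also end in p1 for both CD8 groups and p2 for both CD4 groups, so CD4 and CD8 cannot be told apart from that label. Cells of a pool are not replicates of a genotype, so every difference below compares these pools, and pool and genotype cannot be told apart. All spreads (SD) are over the cells of 1 pool. In the table, 350 cells had at least 1000 genes at 1 FPKM (fragments scaled to transcript length and to the cell's total) or more and were kept, and 21 were left out. The kept cells were 90 WT CD8, 86 KO CD8, 85 WT CD4 and 89 KO CD4 cells. CD4 cells were further divided at 1 FPKM of Foxp3, the transcription factor that defines regulatory T cells. This gave 39 Foxp3 negative and 46 Foxp3 positive WT cells, and 54 Foxp3 negative and 35 Foxp3 positive KO cells.

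Most cells of each sort followed its label. Cd4 was at 1 FPKM or more in 0 CD8 cells (up to 3.33% of WT and 3.49% of KO CD8 cells at this number of cells), and Cd8a was in 83.3% of WT and 81.4% of KO CD8 cells. In the CD4 pools Cd4 was in 87.1% of WT and 87.6% of KO cells, and Cd8a in 2.35% and 1.12%. Cd8b1 was in 24.7% and 21.3% of them, at medians of 2.13 and 2.95 FPKM where detected and highest values of 759 and 584. Foxp3 was in 4.65% of KO CD8 cells. Il2ra, a regulatory T cell marker that was not used for the split, was detected in 82.6% (WT) and 82.9% (KO) of Foxp3 positive cells, against 5.13% and 11.1% of Foxp3 negative cells. Ikzf2, Ctla4, Tnfrsf18, Tnfrsf4 and Ccr8 were also in more Foxp3 positive than negative cells of both pools. Ctla4 was still in 46.2% of WT and 40.7% of KO Foxp3 negative cells, and Tnfrsf18 in 43.6% and 53.7%. Nrp1 was in 19.6% of Foxp3 positive against 23.1% of negative WT cells, and in 31.4% against 16.7% of KO cells. Il27ra itself was detected in 51.1% of WT CD8, 53.5% of KO CD8, 50.6% of WT CD4 and 50.6% of KO CD4 cells, so its summed level in this table does not check the genotype labels. WT and KO below therefore mean cells that carry that label. Read depth per cell is unknown from an FPKM table. The count of genes per cell, taken at 1 FPKM or more, had medians from 1547 (WT Foxp3 negative) to 2152 (KO Foxp3 positive) in the 6 groups of cells. Between 15.1% and 25.6% of the cells of a pool carried at least 2 markers of other cell types at 10 FPKM or more, and the median summed level of the macrophage and monocyte markers was 0 in each of the 6 groups. That of the 7 melanoma markers had medians of 4.67 to 7.81 FPKM, with Tyr at a mean of 5.00 to 7.70 FPKM in 94.9% to 100% of the cells of a group, and each of the other 6 in 15.1% or fewer.

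Polyamines (putrescine, spermidine and spermine) are small positively charged molecules that bind RNA and DNA and that dividing cells need. Ornithine decarboxylase, encoded by Odc1, makes putrescine from ornithine and is the rate-limiting enzyme of the pathway. The antizymes encoded by Oaz1 and Oaz2 bind this enzyme and send it to the proteasome. S-adenosylmethionine decarboxylase (Amd1) supplies the aminopropyl groups with which spermidine synthase (Srm) and spermine synthase (Sms) lengthen putrescine, and spermidine/spermine acetyltransferase (Sat1) tags the products for export or breakdown. Argininosuccinate synthase (Ass1) catalyses the rate-limiting step of making arginine, the source of ornithine, from citrulline. In T cells, activation is known to raise polyamine synthesis under the control of Myc.

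Odc1, Ass1, Sat1 and Oaz2 stood higher in Foxp3 positive than in Foxp3 negative CD4 cells of both pools by at least 1 in mean log2(FPKM + 1), so stretches upstream of a RefSeq start of these genes are shown. They are the bases outside annotated exons from the 250 bases before each start in RefSeq (GRCm38.p6), 5′ to 3′ on the gene's strand. Capitals mark GGGCGG, the core of a GC box, in either orientation (CCGCCC on the strand shown). They cover chr12:17544623-17544793 (plus strand) for Odc1, chr2:31470020-31470206 (plus) for Ass1, chrX:155216450-155216699 (minus) for Sat1 and chr9:65676298-65676547 (plus) for Oaz2. The last line is a stretch of 30 bases of the Ass1 window at chr2:31470222-31470251, where capitals mark CACGTG, the E-box bound by Myc and other factors.
Odc1: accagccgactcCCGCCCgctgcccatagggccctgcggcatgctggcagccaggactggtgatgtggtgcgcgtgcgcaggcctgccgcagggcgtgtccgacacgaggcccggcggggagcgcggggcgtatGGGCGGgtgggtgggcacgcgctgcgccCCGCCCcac
Ass1: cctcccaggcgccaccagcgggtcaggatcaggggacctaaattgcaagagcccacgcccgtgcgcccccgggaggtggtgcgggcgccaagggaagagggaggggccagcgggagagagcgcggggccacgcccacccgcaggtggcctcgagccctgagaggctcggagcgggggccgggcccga
Sat1: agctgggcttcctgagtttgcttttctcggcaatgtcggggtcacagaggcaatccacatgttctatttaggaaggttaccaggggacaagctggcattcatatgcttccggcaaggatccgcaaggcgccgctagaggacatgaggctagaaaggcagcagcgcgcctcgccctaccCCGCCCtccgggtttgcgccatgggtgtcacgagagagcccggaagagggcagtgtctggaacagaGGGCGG
Oaz2: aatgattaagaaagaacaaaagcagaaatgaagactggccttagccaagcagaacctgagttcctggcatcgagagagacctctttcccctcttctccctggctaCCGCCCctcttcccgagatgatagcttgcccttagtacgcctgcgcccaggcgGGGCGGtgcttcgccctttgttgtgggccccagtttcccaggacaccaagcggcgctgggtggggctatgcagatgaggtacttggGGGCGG
Ass1 E-box stretch: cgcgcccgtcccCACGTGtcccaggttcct

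In mm10 coordinates the genes span chr12:17544794-17551505 (Odc1, plus strand), chr2:31470207-31520672 (Ass1, plus), chrX:155213132-155216449 (Sat1, minus), chr9:65668001-65690300 (Oaz2, plus), chr10:80826656-80829290 (Oaz1, plus), chr10:40287458-40302186 (Amd1, minus), chr4:148591503-148594993 (Srm, plus) and chrX:157443855-157492287 (Sms, minus). RefSeq windows matched 7 of the 8 members by symbol, and Srm was not matched. The RefSeq start of the Odc1, Ass1 and Oaz2 windows lies inside the gene span given above, and for Oaz2 the window itself lies inside the gene, before the start of a transcript that begins within it. The Odc1 window had a GC content of 80%, against a median of 52.4% over all windows, and held 4 GGGCGG matches. The match 15 bases before the start of Odc1 and the single match of Ass1, 63 bases before its start, lie in bases annotated as exon and are not printed. GGGCGG on either strand was in 32.7% of 32851 windows of the same length. CACGTG, found in 6.02% of them, was present 36 bases before the RefSeq start of Ass1, in bases that the gene annotation counts as exon, and in the second Sms window, and in no window of Odc1, Oaz1, Oaz2, Amd1 or Sat1. Neither TATAAA (12.4% of windows) nor TTCNNNGAA, a STAT-type palindrome (7.02%), was found on either strand in any member's windows. These are matches of letters in a window and not measured binding.

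The 8 genes fell into distinct ranges of detection. Over the 350 cells, Oaz1 was at 1 FPKM or more in 89.4%, Sat1 in 58.9%, Odc1 in 46% and Ass1 in 41.1%. Sms was detected in 24.9%, Oaz2 in 19.7%, Amd1 in 15.1% and Srm in 6.57% of cells. A detected value was rarely close to the limit, since 43 of 1056 detected values (4.07%) were under 10 FPKM.

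**Figure D1:**
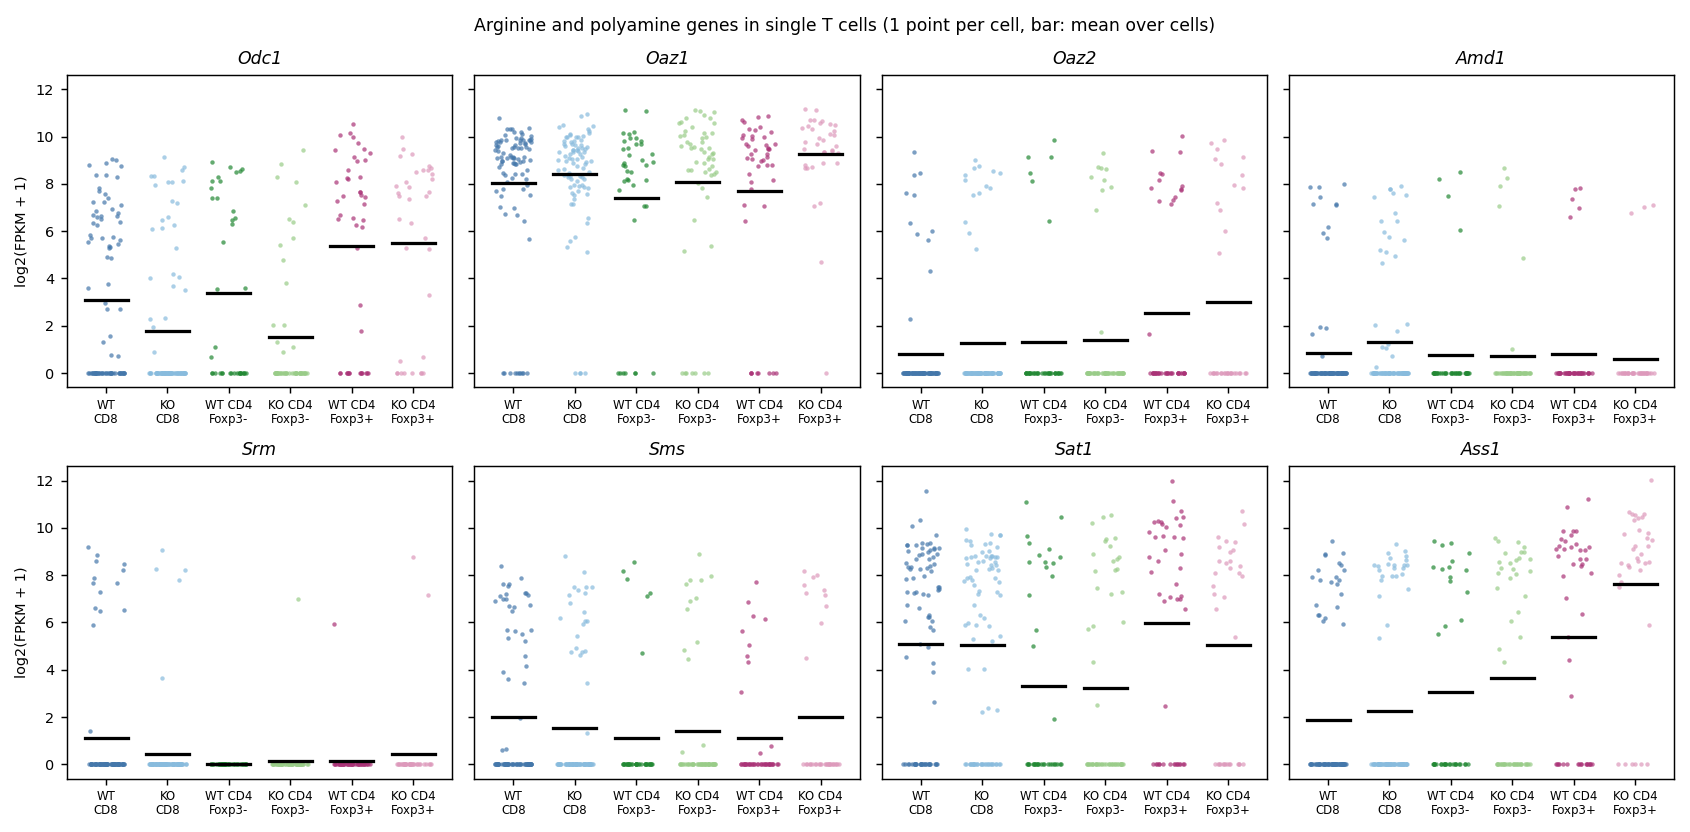
Level of each gene in each cell, as log2(FPKM + 1), by group of cells; each point is 1 cell and the black bar is the mean over the cells of that group. Oaz1 lies high in nearly every cell, while the other genes split into cells at 0 and cells at high values, and the bars of Odc1, Ass1 and Oaz2 are highest over the 2 Foxp3 positive groups.

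Ass1, the arginine-making enzyme, had the steepest gradient across the groups. Its FPKM in WT CD8 cells had a lowest value of 0, a median of 0 and a highest of 692, and in KO CD8 cells 0, 0 and 631. Among Foxp3 negative CD4 cells these values were 0, 0 and 690 (WT) and 0, 0 and 755 (KO). Among Foxp3 positive cells they were 0, 259.8 and 2368 (WT) and 0, 425 and 4167 (KO). The median cell thus held the transcript in the Foxp3 positive groups and in none of the others, although the ranges of the 6 groups overlapped from 0 upward. The share of cells with Ass1 was 24.4% in WT CD8 (exact Clopper-Pearson 95% interval 16 to 34.6, covering counting error only, as do all intervals here), 27.9% in KO CD8 (18.8 to 38.6), 38.5% in WT Foxp3 negative (23.4 to 55.4) and 46.3% in KO Foxp3 negative cells (32.6 to 60.4). It reached 63% in WT Foxp3 positive (47.6 to 76.8) and 82.9% in KO Foxp3 positive cells (66.4 to 93.4). Neighbours in that order overlapped in their intervals, and the 2 CD8 pools lay below both Foxp3 positive groups without overlap.

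Odc1, the gate of polyamine synthesis, had another order. In CD8 cells its FPKM ran from 0 through a median of 1.08 to 525 in WT and from 0 through 0 to 557 in KO. In Foxp3 negative CD4 cells it ran from 0 through 0.61 to 491 in WT and from 0 through 0 to 694 in KO. In Foxp3 positive cells it ran from 0 through 122.4 to 1479 in WT and from 0 through 179.9 to 998 in KO. Both Foxp3 positive groups stood highest, and within CD8 and Foxp3 negative CD4 cells the WT pool stood above the KO pool. Odc1 was detected in 50% of WT CD8 (95% interval 39.3 to 60.7), 29.1% of KO CD8 (19.8 to 39.9), 48.7% of WT Foxp3 negative (32.4 to 65.2), 27.8% of KO Foxp3 negative (16.5 to 41.6), 69.6% of WT Foxp3 positive (54.3 to 82.3) and 71.4% of KO Foxp3 positive cells (53.7 to 85.4). The WT CD8 and WT Foxp3 negative shares were close to each other, as were those of the 2 KO groups. A single cell supplied 31.6% of the summed Odc1 FPKM of the KO Foxp3 negative group.

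Oaz1, the widely expressed antizyme, was the highest member by mean FPKM in all 6 groups. Its mean was 576 ± 385 (SD, n = 90 cells) in WT CD8 and 572 ± 420 (n = 86) in KO CD8. In Foxp3 negative cells it was 549 ± 530.5 (n = 39, WT) and 742 ± 618 (n = 54, KO), and in Foxp3 positive cells 647 ± 517 (n = 46, WT) and 929 ± 577 (n = 35, KO). The share of cells with Oaz1 ran from 82.1% (WT Foxp3 negative) to 97.1% (KO Foxp3 positive, 34 of 35 cells), with overlapping intervals. Oaz2, the rarer antizyme, was detected in 12.2% and 16.3% of WT and KO CD8 cells, 15.4% and 18.5% of Foxp3 negative cells, and 32.6% and 37.1% of Foxp3 positive cells. Its highest values were 651 and 517 FPKM in the CD8 pools and 1051 (WT) and 937 (KO) in Foxp3 positive cells, with a median of 0 in each group. In CD8 cells and KO CD4 cells, every cell with Oaz2 also had Oaz1, and in WT CD4 cells 18 of 21 did.

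The aminopropyl branch was sparse. Amd1 was detected in 25.6% of KO CD8 cells (95% interval 16.8 to 36.1) and 14.4% of WT CD8 cells (7.92 to 23.4), and in between 8.57% and 11.1% of the 4 CD4 groups. Amd2, a near-identical copy, was detected in 9.26% to 23.3% of cells by group, so reads may have been divided between the pair and Amd1 values are uncertain. Srm was found mainly in WT CD8 cells, at 15.6% (8.77 to 24.7), against 5.81% of KO CD8 cells (1.91 to 13.05), 1.85% of KO Foxp3 negative, 2.17% of WT Foxp3 positive and 5.71% of KO Foxp3 positive cells. This order of the CD8 pools held only in cells with 2000 genes or more, at 13 of 59 WT and 2 of 38 KO cells. With fewer genes Srm was in 1 of 31 WT and 3 of 48 KO CD8 cells. In WT Foxp3 negative cells Srm was in 0 of 39, which by a limit of 3 counts allows a share of up to 7.69%. Sms was in 32.2% of WT CD8 (22.7 to 42.9) and 25.6% of KO CD8 cells, and in 15.4% to 28.6% of the CD4 groups. The median FPKM of Amd1, Srm and Sms was 0 in every group.

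Sat1, the acetyltransferase of polyamine breakdown, was next to Oaz1 in level in 5 of the 6 groups, and Ass1 took that place in KO Foxp3 positive cells. Its FPKM had a median of 101.3 and a highest value of 3059 in WT CD8 cells, and 91.7 and 996 in KO CD8 cells. In Foxp3 negative cells the median was 0 in both pools, with highest values of 2188 (WT) and 1478 (KO). In Foxp3 positive cells the median was 171.7 (highest 4041) in WT and 145.9 (highest 1703) in KO. Sat1 was thus found in the typical CD8 and Foxp3 positive cell but not in the typical Foxp3 negative cell. The shares were 65.6% (54.8 to 75.3) and 66.3% (55.3 to 76.1) of WT and KO CD8 cells, 41% (25.6 to 57.9) and 40.7% (27.6 to 55) of Foxp3 negative cells, and 67.4% (52 to 80.5) and 60% (42.1 to 76.1) of Foxp3 positive cells.

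**Figure D2:**
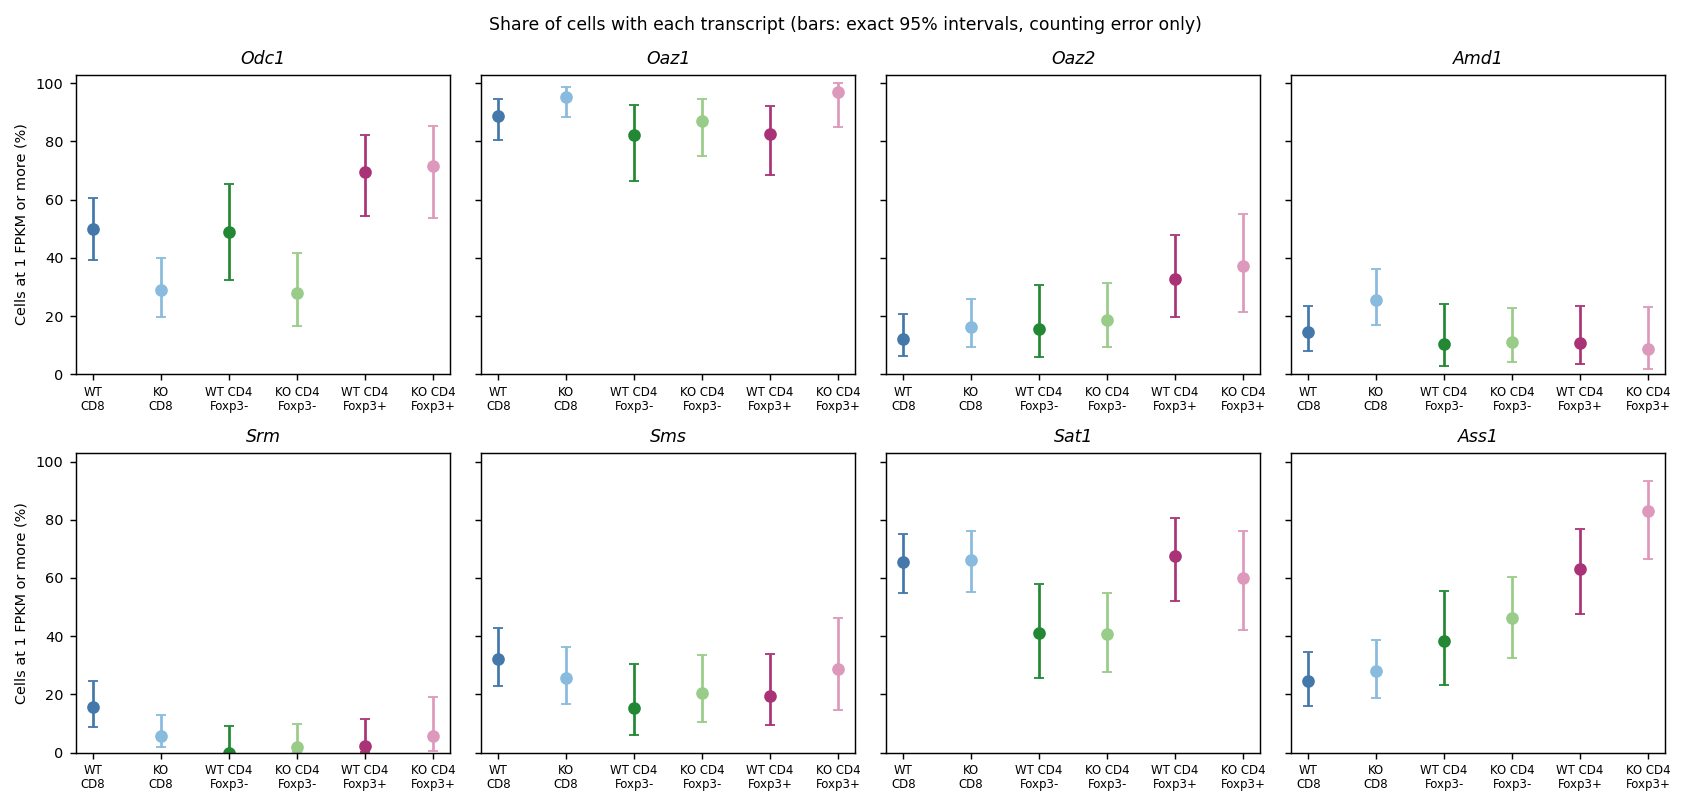
Share of cells at 1 FPKM or more for each gene and group of cells, in percent, with exact 95% binomial intervals that cover counting error only. Odc1 and Ass1 reach 69.6% and 63% of WT and 71.4% and 82.9% of KO Foxp3 positive cells, and Sat1 is lowest in the 2 Foxp3 negative groups at 41% and 40.7%.

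Ranking the members by mean FPKM, which is scaled to transcript length, gave Oaz1, Sat1, Odc1 and Ass1 as the leading 4 in WT CD8 cells, at 576, 249.5, 69.3 and 60.9 FPKM. In KO Foxp3 positive cells the leading 4 were Oaz1 (929), Ass1 (698), Sat1 (280.4) and Odc1 (213.6). In all 6 groups the gap between neighbours in this order was smaller than the larger of their SDs over cells, so no neighbouring pair differed beyond the spread of single cells. Srm, Sms, Oaz2 and Amd1 lay between 0 and 149.2 FPKM in mean in all groups.

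For the comparisons, a difference is the mean over cells of log2(FPKM + 1) in the first group minus that in the second, and a difference of 1 or more in size was counted as higher or lower. The median of all measured genes (those found at 1 FPKM or more in 20% of cells or over, in either group) is given because it moves with the number of genes per cell. Counts over the members and the gene lists also include genes below this filter, which the shares of all measured genes leave out. Each CD4 group enters several comparisons: the Foxp3 negative cells are shared by the Foxp3 and the CD4 against CD8 comparisons, and the KO against WT values of all CD4 cells include those of both Foxp3 classes. Such values are therefore set side by side and are not independent.

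Foxp3 positive CD4 cells had more Odc1, Ass1, Sat1 and Oaz2 transcript than Foxp3 negative cells of the same pool. In the WT pool, 4 of the 8 members were higher by 1 or more, where 23.9% of 3850 measured genes were, and 0 were lower (4.81% of genes). In the KO pool 5 of 8 were higher, with 30% of 4849 genes, and 0 were lower (2.35%). The same 4 genes were higher in both pools, where 14.4% of 3560 genes measured in both were, and 0 of 8 were lower in both (1.4% of genes). The median of the 8 differences was 0.75 in WT and 1.39 in KO, and that of all measured genes was 0.42 and 0.60. These members were named for this pattern, so the counts are not evidence for it. The number passing the 20% filter was 5 of 8 in WT and 6 of 8 in KO.

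Odc1 was higher in Foxp3 positive cells by 2.03 in WT (mean log2 level 5.39 ± 3.96 SD over 46 cells against 3.36 ± 3.76 over 39) and by 3.99 in KO (5.51 ± 3.69 over 35 against 1.51 ± 2.83 over 54). The mean FPKM was 2.71 and 5.25 times as high. Ass1 was higher by 2.32 in WT (5.38 ± 4.40 against 3.06 ± 3.99) and by 3.98 in KO (7.65 ± 3.70 against 3.67 ± 4.10), with 2.97 and 4.48 times the mean FPKM. In the KO pool, Odc1 and Ass1 ranked 23 and 24 from the top of 4849 measured genes. Sat1 was higher by 2.67 in WT (5.97 ± 4.47 against 3.31 ± 4.26) and by 1.82 in KO (5.06 ± 4.29 against 3.24 ± 4.15). Oaz2 was higher by 1.21 and 1.61. The 5th gene of the KO count was Oaz1, at 1.17 in KO and 0.30 in WT, and its KO value came to 0.29 with cells weighted to equal gene numbers. Amd1 differed by 0.02 and -0.10, Sms by -0.01 and 0.61, and Srm by 0.13 and 0.33. The difference for Odc1, Ass1 and Sat1 in WT, and for Odc1 and Ass1 in KO, stayed at 1 or more under all 10 alternative settings tried. Of these settings, 2 could hardly move the values. The limit of 10 FPKM for Foxp3 kept 45 of 46 WT and 35 of 35 KO Foxp3 positive cells. The other left out 1 KO Foxp3 negative cell full of haemoglobin transcripts and changed no WT cell. Sat1 in KO came to 0.81 when cells were weighted to equal numbers of detected genes and to 0.58 on log2 of the mean FPKM. Oaz2 came to 0.57 (WT, log2 of the mean FPKM) and 0.59 (KO, weighted).

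**Figure D3:**
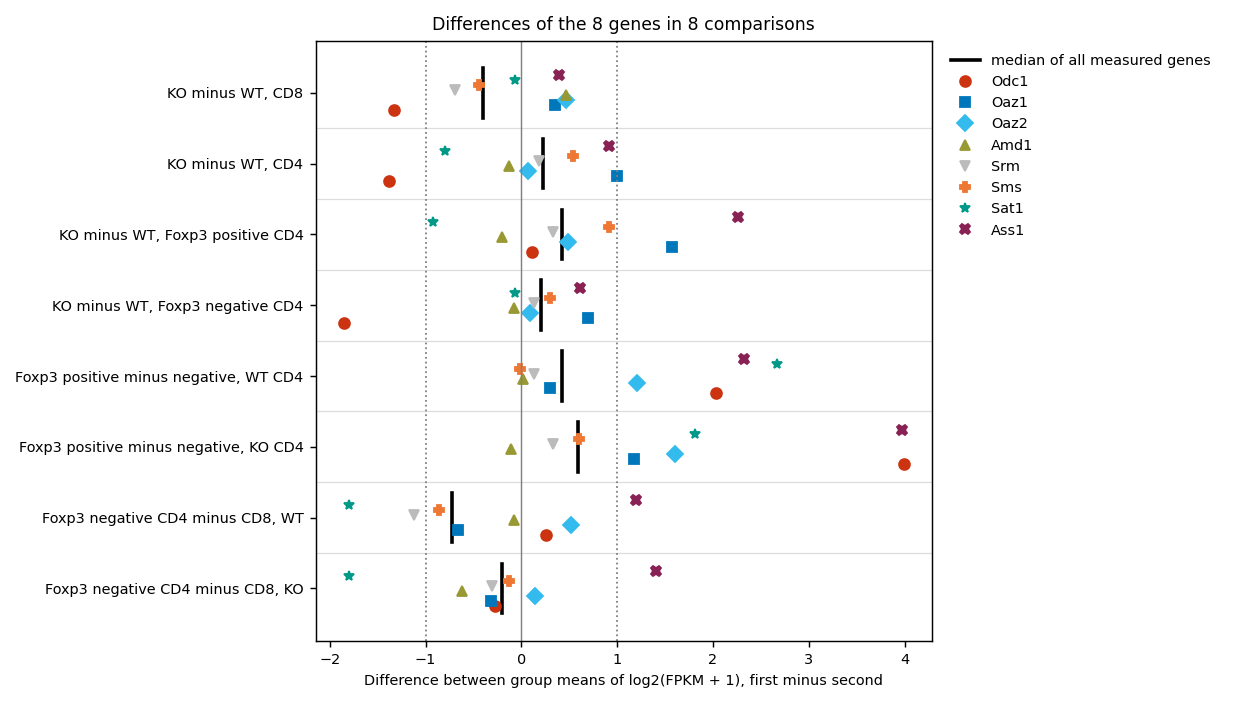
Difference between group means of log2(FPKM + 1) for each of the 8 genes in the 8 comparisons; dotted lines mark -1 and 1, and the black bar is the median of all measured genes. In the Foxp3 comparisons Odc1, Ass1, Sat1 and Oaz2 lie beyond 1 in both pools, and Odc1 lies at -1.85 for KO minus WT in Foxp3 negative cells.

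Foxp3 positive cells also showed more genes per cell, with medians of 1883.5 against 1547 in WT and 2152 against 1746.5 in KO. Among cells with fewer than 2000 genes, Odc1 was detected in 16 of 27 Foxp3 positive (59.3%) and 15 of 33 Foxp3 negative WT cells (45.5%), and in 8 of 14 (57.1%) and 8 of 38 KO cells (21.1%). Ass1 among these cells was in 51.9% against 30.3% of WT and 71.4% against 39.5% of KO cells. Sat1 was in 51.9% against 36.4% of WT cells but in 35.7% against 36.8% of KO cells. Among cells with 2000 genes or more, Odc1 was in 84.2% of 19 Foxp3 positive against 66.7% of 6 Foxp3 negative WT cells, and in 81% of 21 against 43.8% of 16 KO cells. Ass1 was there in 78.9% against 83.3% of WT and 90.5% against 62.5% of KO cells, and Sat1 in 89.5% against 66.7% and 76.2% against 50%. The share of Odc1 was thus higher in Foxp3 positive cells in both ranges of gene number and both genotypes, although the 95% intervals overlapped each time. In WT they were 38.8 to 77.6 against 28.1 to 63.6 under 2000 genes, and 60.4 to 96.6 against 22.3 to 95.7 above. In KO they were 28.9 to 82.3 against 9.55 to 37.3, and 58.1 to 94.6 against 19.8 to 70.1. That of Ass1 was not higher in WT cells with 2000 genes or more, and that of Sat1 not in KO cells with fewer.

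Odc1 and Ass1 were often found in the same Foxp3 positive cell. Both were detected in 22 of 46 WT Foxp3 positive cells (47.8%, 95% interval 32.9 to 63.1) and in 20 of 35 KO Foxp3 positive cells (57.1%, 39.4 to 73.7). The share was 11 of 39 WT Foxp3 negative cells (28.2%, 15 to 44.9) and 7 of 54 KO Foxp3 negative cells (13%, 5.37 to 24.9), 12 of 90 WT CD8 cells (13.3%, 7.08 to 22.1) and 7 of 86 KO CD8 cells (8.14%, 3.34 to 16.1). Only 1 of 35 KO Foxp3 positive cells had neither. Within KO Foxp3 positive cells, however, Ass1 was in 80% of cells with Odc1 and in 90% of the 10 cells without it. In WT Foxp3 positive cells these shares were 68.8% and 50%. In Foxp3 negative cells they were 57.9% and 20% in WT, and 46.7% and 46.2% in KO. In CD8 cells they were 26.7% and 22.2% in WT, and 28% and 27.9% in KO. The share of cells with both genes also rises with the share of each gene alone. At least 4 of the 8 members were detected in 56.5% of WT and 54.3% of KO Foxp3 positive cells, against 30.8% and 24.1% of Foxp3 negative and 41.1% and 29.1% of CD8 cells.

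**Figure D4:**
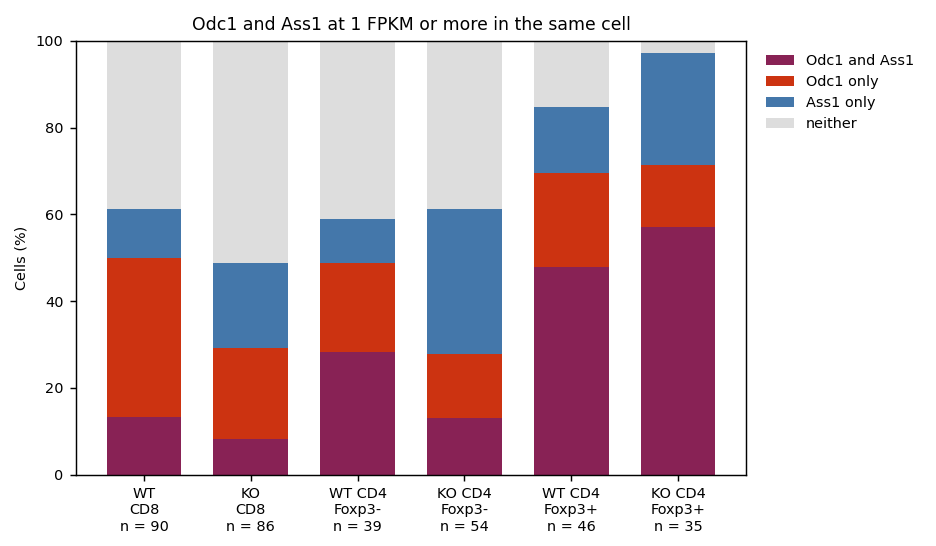
Percent of cells of each group with Odc1 and Ass1 both at 1 FPKM or more, with either alone, or with neither. Both were found in 47.8% (WT) and 57.1% (KO) of Foxp3 positive cells and in 8.14% to 28.2% of the cells of the other 4 groups.

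Other genes of the pathway, taken from lists of 11 further polyamine genes, 4 genes of hypusine formation, 17 of arginine supply and use and 10 of the methionine cycle, mostly stayed within 1 in the Foxp3 comparisons. Asl, the enzyme that follows Ass1 in arginine synthesis, was higher in Foxp3 positive cells by 1.07 in WT (23.9% against 10.3% of cells) and by 1.97 in KO (37.1% against 9.26%). Aldh18a1, which makes the precursor of proline and ornithine, was higher by 1.60 in KO. Slc7a6, a transporter of basic amino acids, was at -1.22 in WT. These are the genes past 1 among the 17, so the count was 1 higher and 1 lower in WT and 2 higher and 0 lower in KO. Among all measured genes 23.9% were higher and 4.81% lower in WT, and 30% and 2.35% in KO, and the share of higher genes in each of these 4 lists lay below that of all measured genes. Of the 11 polyamine genes and of the 10 methionine genes, 0 passed 1 in either pool. Dohh, the hydroxylase that completes hypusine on eIF5A, was higher by 1.27 in KO, as 1 of 4 hypusine genes, of which 2 passed the filter there. Arginase genes were nearly undetected: Arg1 was in at most 2.22% of the cells of any group and Arg2 in at most 4.65%, and Nos2 was in 0 cells of every group (which by the same limit allows from 3.33% of WT CD8 to 8.57% of KO Foxp3 positive cells).

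In the Myc network, Mxd1, a repressor of the MAX family, was higher in Foxp3 positive cells by 1.81 in WT and 1.23 in KO. Mlx was higher by 1.59 in KO, and Myc itself was at -0.33 in WT and 0.81 in KO. This gave 1 and 2 of 10 genes, of which only 3 in WT and 4 in KO passed the filter. Of all measured genes, which passed it, 23.9% and 30% were higher. Of the cell cycle genes, 2 of 12 were higher by 1 or more in WT (Mcm5 at 1.47 and Birc5 at 1.37), where 23.9% of all measured genes were, and 6 of 12 in KO, where 30% were. Of these 12, 5 in WT and 9 in KO passed the filter. The median difference of the 12 was 0.67 and 0.92, against 0.42 and 0.60 for all measured genes. Cells with Mki67 or Top2a made up 26.1% of WT and 34.3% of KO Foxp3 positive cells, against 7.69% and 18.5% of Foxp3 negative cells. Their part in the Odc1 and Ass1 values was not tested.

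Against WT, the KO pools had less Odc1 outside the Foxp3 positive cells. In Foxp3 negative CD4 cells 1 of 8 members was lower by 1 or more, where 3.15% of 3426 genes were, and 0 were higher (13.5% of genes). The member was Odc1, at -1.85 (mean log2 level 1.51 ± 2.83 in KO against 3.36 ± 3.76 in WT). It ranked 3423 from the top of 3426 genes, and the WT mean was 2.47 times the KO mean. The value lay between -2.61 and -1.10 under all 9 alternative settings. The median of all measured genes was 0.21, in the opposite direction. In cells with fewer than 2000 genes, Odc1 was in 45.5% of 33 WT and 21.1% of 38 KO cells. The other 7 members differed by -0.08 to 0.70, with Oaz1 at 0.70 and Ass1 at 0.61. Without the cells that carry markers of other cell types, Ass1 was at 1.48, Oaz1 at 1.07 and Odc1 at -1.22.

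In CD8 cells, 1 of 8 members was lower by 1 or more in KO, where 13.3% of 4686 genes were, and 0 were higher (0.555% of genes). Odc1 was at -1.32 (1.79 ± 3.03 in KO against 3.11 ± 3.38 in WT). This is less clear than in Foxp3 negative CD4 cells, because the median of all genes was -0.40 and the KO CD8 cells had fewer genes (median 1955 against 2148). The Odc1 difference was -0.92 relative to that median and -0.65 with cells weighted to equal numbers of genes. Without cells that carry markers of other cell types it was -0.95. It passed 1 in 4 of 9 alternatives, and 1 of those 4, without the haemoglobin cell, changed no CD8 cell. Srm was at -0.69, Sms at -0.44, Sat1 at -0.07, Oaz1 at 0.35, Ass1 at 0.40, Oaz2 at 0.46 and Amd1 at 0.47. Eif5a, the protein that carries hypusine made from spermidine, was at -1.27 in KO CD8 cells and was detected in 81.4% of KO and 88.9% of WT cells. Of the cell cycle genes, 4 of 12 were past -1, among them Pcna at -1.59, Mcm3 at -1.39 and Mcm5 at -1.48, while Mcm6 was at 0.03 and Tyms at -0.23. Cells with Mki67 or Top2a made up 8.14% of the KO and 26.7% of the WT CD8 pool. Their part in the Odc1 difference was not tested. Among WT CD8 cells Odc1 was in 70.8% of the 24 cells with Mki67 or Top2a and in 42.4% of the 66 cells without, which had medians of 3210.5 and 2048.5 genes. That difference was 2.34, and 1.06 with cells weighted to equal gene numbers. In KO CD8 cells it was in 2 of 7 such cells (28.6%) and in 29.1% of the 79 others.

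In Foxp3 positive cells the KO minus WT difference of Odc1 was 0.11, with a range of -0.93 to 0.30 over the 10 alternatives, in which the direction turned in 7. Whether this differs from the -1.85 of Foxp3 negative cells was not tested. In these cells 2 of 8 members were higher by 1 or more in KO, where 21.5% of 4894 genes were, and 0 were lower (2.31%). They were Ass1 at 2.27 (7.65 ± 3.70 against 5.38 ± 4.40) and Oaz1 at 1.57 (9.26 ± 2.05 against 7.69 ± 3.69). The median of all genes was 0.42. Weighted to equal numbers of genes, Ass1 was at 0.87 and Oaz1 at 0.95, and on log2 of the mean FPKM they were at 0.91 and 0.52. Sat1 was at -0.92, Sms at 0.91, Oaz2 at 0.49, Srm at 0.33 and Amd1 at -0.20. Sat1 was at -1.34 relative to the median of all genes and ranked 4763 from the top of 4894. It ran from -2.13 to -0.70 over the 10 alternatives and passed -1 in 4. Sms ran from 0.46 to 1.76 and passed 1 in 3. Dohh was higher by 1.69, in 34.3% of KO against 10.9% of WT Foxp3 positive cells, as 1 of 4 hypusine genes. Mlx was at 1.67, as 1 of 10 Myc network genes, and Mcm6 at 1.67, as 1 of 12 cell cycle genes.

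Over all CD4 cells, the KO minus WT difference of Odc1 was -1.38 (3.08 ± 3.73 against 4.46 ± 3.98), and 1 of 8 members was lower by 1 or more where 0.983% of 3864 genes were. The count of higher members was 0, with 9.91% of genes, and Oaz1 at 1.00 and Ass1 at 0.92 lay just under the limit. Foxp3 positive cells made up 54.1% of the WT and 39.3% of the KO CD4 cells, so the pooled value mixes the 2 classes in different parts. The Odc1 value was -0.87 at a pseudocount of 10 and -0.83 on log2 of the mean FPKM. The value of -1.38 lies between those of the classes, 0.11 and -1.85. Sat1 was at -0.80, Sms at 0.54, Srm at 0.19, Oaz2 at 0.07 and Amd1 at -0.13.

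Compared with CD8 cells of the same genotype label, Foxp3 negative CD4 cells had more Ass1 and less Sat1. In WT, 1 of 8 members was higher by 1 or more (0.875% of 4687 genes) and 2 were lower (35.2% of genes). In KO, 1 of 8 was higher (3.86% of 3679 genes) and 1 was lower (8.45%). Ass1 was higher by 1.19 in WT and by 1.41 in KO, and 0.572% of 3498 genes were higher in both pools. Sat1 was lower in both, at -1.80 in each pool, as were 5.69% of genes. The other WT gene past -1 was Srm at -1.12, which did not pass the 20% filter. It was past -1 in 5 of 9 alternatives, 1 of which, without the haemoglobin cell, changed no WT cell. The medians of all genes were -0.73 in WT and -0.20 in KO, and WT Foxp3 negative cells had the fewest genes (1547 against 2148). Sat1 in WT came to -0.11 when cells were weighted to equal numbers of genes, and in KO it was -1.65. On log2 of the mean FPKM it was -0.21 and -0.20. Ass1 was 2.79 and 1.46 with the weights, and 0.74 and 0.82 at a pseudocount of 10, and it was 0.89 in WT without cells that carry markers of other cell types. Odc1 differed by 0.25 in WT and by -0.27 in KO. In the methionine cycle, Mat2a, the S-adenosylmethionine synthetase, was at -1.84 in WT and -1.64 in KO, and 5 of 10 genes were past -1 in WT and 2 of 10 in KO. Of the Myc network 1 of 10 genes was past -1 in each pool, Mlx at -1.42 in WT and Myc at -1.70 in KO. Myc was at -0.95 in WT. Of the cell cycle genes 4 of 12 were past -1 in WT and 0 in KO, and of the hypusine genes 1 of 4 and 0.

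Within the CD4 pools Odc1 also stood higher in cells with Mki67 or Top2a. It was in 72.7% of 22 such KO cells and 35.8% of 67 other cells, and in 73.3% of 15 WT cells and 57.1% of 70 others. Those cells had more genes (medians 2362 against 1757 in KO and 2315 against 1577.5 in WT). Weighting for this kept the KO difference in direction, at 1.48, but turned the WT difference to -0.89. Foxp3 was positive in 12 of the 15 WT and 12 of the 22 KO cells with Mki67 or Top2a. Of all CD4 cells, 54.1% of WT and 39.3% of KO were Foxp3 positive, a class with more Odc1. The part of Foxp3 in this difference was not tested. Among WT CD8 cells with at least 2 of 4 checkpoint receptor genes, Odc1 was in 61.5% of 39 cells against 41.2% of 51 others, with medians of 3024 against 1993 genes. Among KO CD8 cells it was in 30.4% of 23 against 28.6% of 63, with 1984 against 1950 genes. Sat1 there was in 87.0% against 58.7%, at a difference of 3.05, or 2.83 with weights.

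Members showed little likeness to each other from cell to cell. The highest Spearman correlation between members, averaged over the 4 pools (350 cells), was 0.22 for Oaz1 and Oaz2, and that of Odc1 and Ass1 was 0.12. Of 3373 genes, those most like Odc1 were Tnfrsf4 (0.43), Tnfrsf9 (0.41) and Ccr8 (0.39), which encode receptors of activated and regulatory T cells. Those most like Oaz1 were Actg1 (0.37), Cfl1 (0.35) and Ldha (0.34). For the other 6 members the highest value was 0.30, for Sms with Prmt1, an arginine methyltransferase. Genes measured in the same cell share that cell's library, depth and number of detected genes. These values therefore describe the pools and are not evidence of shared control.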

How the data were processed

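Single T cells were profiled with Smart-seq2, a full-length method without molecular identifiers, with 21 PCR cycles and Nextera XT libraries, per the labels' protocols. The authors deposited 1 table of FPKM values, scaled between cells by TMM, that derives from Bowtie, RSEM and mm10 per the submitters' processing notes. Versions are not given in the sources used here, and how reads of near-identical genes were divided is not known. The table held 375 columns, of which 371 are single cells and 4 are columns named for populations, not used here, and 23362 distinct genes after 4 repeated symbols were dropped. Cells under 1000 genes at 1 FPKM were left out (21). No cell had the values of another (highest correlation 0.69).

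Groups came from the titles and the measured Foxp3 level. With 1 pool per group no test was possible: differences are between means over cells of log2(FPKM + 1), a pseudocount of 1, and shares have exact Clopper-Pearson 95% intervals. A share of 0 allows 3 counts. The scripts were tested on simulated data. Named genes are the 8 members, list genes with a difference of 1 or more or needed as background, and for each member the 3 genes of highest mean Spearman correlation within the 4 pools. The members and lists were chosen with earlier results of these data known. Alternatives changed the pseudocount, the cell and gene filters, the weight of cells and the Foxp3 and detection limits. Python 3.11.15, numpy 2.4.6, pandas 2.3.3 and scipy 1.17.1 were used.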

Additional observations from a re-analysis of the deposited data

How the results depend on the processing

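The main limit is that each group is 1 sorted pool, so leaving out a replicate was not possible. No paired analysis was possible because every title carries the same replicate number and each group has a single pool. Low detection limits Srm, Amd1, Oaz2 and Sms, and read depth is unknown. The settings on log2 of the mean FPKM and without 1 cell full of haemoglobin transcripts were chosen after seeing the data. Over all settings, 66 medians of the 8 members stayed near their value and 9 moved, 41 counts of members past 1 moved, 25.5% of 600 member differences moved, and 5 shares of cells moved. The haemoglobin cell was a KO Foxp3 negative CD4 cell, so leaving it out changed only comparisons that include those cells. All 64 member differences of that setting stayed, as did all 24 with Foxp3 positive cells taken at 10 FPKM. Of the differences between classes of cells, 39.3% moved and 5 of those of 1 or more turned in sign. The cause of the changes below was not tested.

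The median of the 8 members for Foxp3 positive minus negative cells was 1.04 (pseudocount 0.1) and 1.23 (no minimum of genes per cell) in WT. In KO it was 0.90 (pseudocount 10), 0.44 (cells weighted so that both groups have the same spread of gene numbers), 0.79 (relative to the median of all genes) and 0.99 (log2 of the mean FPKM). For Foxp3 negative CD4 minus CD8 in WT it turned from -0.37 to 0.34 (cells with at least 1500 genes), 0.67 (weighted) and 0.36 (relative to the median of all genes).

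Counts of members past 1 moved as follows. For KO minus WT in CD8 cells, the count of lower members went from 1 to 2 at a pseudocount of 0.1 and to 0 at a pseudocount of 10, with weights, relative to the median of all genes and without cells carrying other markers, and the count of higher members went from 0 to 1 with weights. For KO minus WT in all CD4 cells, higher members went from 0 to 2 (pseudocount 0.1), 1 (no minimum of genes), 3 (without cells carrying other markers) and 1 (log2 of the mean FPKM). Lower members there went from 1 to 2 (pseudocount 0.1, at least 1500 genes, weights, relative to the median) or to 0 (pseudocount 10, log2 of the mean FPKM). In Foxp3 positive cells, lower members went from 0 to 1 (pseudocount 0.1, at least 1500 genes, weights, relative to the median) and higher members from 2 to 1 (at least 1500 genes) and 0 (weights). In Foxp3 negative cells, higher members went from 0 to 1 (no minimum of genes, log2 of the mean FPKM) and 3 (without cells carrying other markers).

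For Foxp3 positive minus negative cells, lower members in WT went from 0 to 1 (log2 of the mean FPKM), and higher members in KO from 5 to 3 (pseudocount 10) and 2 (weights). For Foxp3 negative CD4 minus CD8 in WT, higher members went from 1 to 0 (pseudocount 10, without cells carrying other markers), 2 (at least 1500 genes, relative to the median, log2 of the mean FPKM) and 3 (weights), and lower members from 2 to 0 (pseudocount 10, weights) and 1 (relative to the median, log2 of the mean FPKM). In KO, lower members went from 1 to 2 (pseudocount 0.1) and higher members from 1 to 0 (pseudocount 10, log2 of the mean FPKM).

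Without the filter on genes, the share of all genes past 1 in a given direction ran from 0.192% to 12.6% over the 16 values, each below its filtered value by over 1.5 times. Weighting cells reversed 5 differences of 1 or more in size between cells with and without Mki67 or Top2a: Amd1 to -0.93 and Ass1 to -0.13 in KO CD8 cells, Odc1 to -0.89 in WT CD4 cells, and Sat1 to -0.30 and Ass1 to -0.51 in KO CD4 cells.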
